A study of Mus musculus with 16 samples.

Results

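The genes of the smooth muscle contractile apparatus in fetal mouse lung were examined as a set of 10: Acta2, Actg2, Myh11, Myl9, Cnn1, Tagln, Smtn, Lmod1, Des and Myocd. They were taken by symbol, with no threshold on a measured value, from 57180 genes in the count files. All 10 were found. RNA of whole lung was sequenced at E14.5 (embryonic day) in 16 poly(A)-selected libraries, 4 in each of 4 groups. The B6 (C57BL/6J) control and A/J control groups came from dams given corn oil. The B6 BMS493 and A/J BMS493 groups came from dams given BMS493, a compound that lowers the basal activity of all retinoic acid receptors (a pan-RAR inverse agonist). It was given by mouth at 3.75 µg per g per day between E9.5 and E14.5, and the series describes the fetuses as male. The labels state neither which fetuses shared a dam nor whether a library held 1 lung or several, so a p-value measures only the spread between these libraries.

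Airway smooth muscle forms as a ring of mesenchyme-derived cells around each growing bronchial tube, and it contracts already before birth. The force comes from myosin thick filaments (heavy chain Myh11, regulatory light chain Myl9) that pull on actin thin filaments (Acta2, Actg2). The thin filaments carry proteins that bind or organise actin (Cnn1, Tagln, Smtn, Lmod1), and the intermediate filament protein desmin (Des) ties the apparatus to the rest of the cell. Myocardin (Myocd) is a coactivator that works with serum response factor, which binds a DNA element called the CArG box in many of these genes. Blood vessel walls use the same genes, and heart and skeletal muscle use some of them. In whole-lung RNA, fewer cells of a type and less RNA per cell cannot be told apart.

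The pair of smooth muscle actins differed between the strains in opposite directions, so their coding sequences were compared to see how far the transcripts can be separated. Aligned without gaps from the stop codon, the GENCODE M21 coding sequences of Acta2 (1131 bases) and Actg2 (1128 bases) were identical at 945 of 1128 positions (83.8%), and the longest run without a difference was 29 bases. None of the Actg2 windows of 50 bases, and 0.326% of those of Acta2, also occurred in a transcript of another gene.

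RefSeq promoter sequences (GRCm38.p6, 250 bases before to 50 after the gene start) could be matched for 6 of the 10 genes. They were searched for the CArG box, that is CC, then 6 bases that are each A or T, then GG, which reads the same on both strands. An exact box was present in 1.63% of all 32851 windows of this length, and a box with at most 1 changed middle base in 9.98%. Of the 6 genes, Myl9 had an exact box and a box with 1 change, Acta2 had a pair of boxes with 1 change each, and the windows of Cnn1, Smtn, Lmod1 and Des had none. The boxes found are in capitals below, as a description of these letters only.
Myl9, box starting at -161 from the gene start, chr2:156775278-156775337, plus strand: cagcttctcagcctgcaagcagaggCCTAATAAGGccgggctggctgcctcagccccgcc
Myl9, box starting at -99 from the gene start, chr2:156775340-156775399, plus strand: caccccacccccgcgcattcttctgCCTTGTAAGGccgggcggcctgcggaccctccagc
Acta2, box starting at -84 from the gene start, chr19:34255423-34255482, minus strand: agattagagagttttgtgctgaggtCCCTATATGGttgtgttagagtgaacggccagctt
Acta2, box starting at -34 from the gene start, chr19:34255374-34255432, minus strand: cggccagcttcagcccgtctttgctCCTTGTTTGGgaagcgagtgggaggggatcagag

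Between 15207539 and 24146224 fragments per library were assigned to genes. On the second principal component of log2 expression (7.29% of the variance), replicate 3 of the B6 BMS493 group lay at -47.8 and the other 15 libraries between -9.07 and 15.6. Its summed level of 12 lung mesenchyme markers was 15314 CPM (counts scaled to library size), while the rest of its group had 8550 to 9655. Most of that sum came from the matrix genes on the list (Col1a1, Col1a2, Col3a1 and Mfap4). Calls among the contractile genes that change without this library are given. Replicate 4 of the A/J control group had the lowest mean of the contractile genes in its group, 6.14 on the log2 CPM scale against 6.41 to 6.44, and is treated likewise. This library was thus picked by the values of the contractile genes themselves. As a check of the treatment, 6 of 10 tested retinoic acid target genes were called lower with BMS493 over both strains, beside 1.09% of all genes. Among them Cyp26b1 fell by 3.96 and Dhrs3 by 1.69 on the log2 scale (edgeR adjusted p = 8.32e-10 for each). The list was chosen with earlier results of these data known. The 10 lung epithelial markers listed, with Nkx2-1 and Sftpc among them, were all detected above the count filter.

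The 10 genes were not counted equally well. For 8 of them the column that ignores strand held between 99.3% and 100% of the sum of the strand columns. Tagln, by contrast, had 3 to 12 counts per library in that column but 721 to 1461 in the first strand column and 726 to 1344 in the second. In M21 the antisense gene Gm48529 covers 1241 of the 1988 exon bases of Tagln (62.4%) on the opposite strand. Over the 16 libraries Gm48529 had 14572 counts in the first strand column, where Tagln on the second had 14777, and 16362 in the second, where Tagln on the first had 16508. Over all genes the first strand column held 51.0% to 52.0% of the counts of the strand columns in each library, so reads of Tagln and of Gm48529 cannot be told apart, and Tagln is given from each strand column in a fit of its own. Smtn kept 66.4% to 73.1% of its strand columns' sum, and Gm11946 covers 714 of its 4380 exon bases (16.3%) on the opposite strand. Of 12703 genes with at least 1600 counts in the strand columns, 16.6% kept less than 80% and 5.88% less than 5%.

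Levels per kilobase of exon put the genes in one order in all 4 groups. In B6 controls Acta2 led with 265 ± 8.09 CPM per kb (SD, n = 4), followed by Myl9 at 113 ± 7.10, Actg2 at 67.1 ± 1.40 and Myh11 at 38.9 ± 1.09. Smtn stood at 22.4 ± 1.16 CPM per kb, Des at 15.8 ± 1.40, Cnn1 at 14.1 ± 0.689, Myocd at 5.44 ± 0.591 and Lmod1 at 2.64 ± 0.396. Only the neighbours Des and Cnn1 overlapped between libraries, in 3 of the 4 groups. Myocd, the regulator of the set, stood below every structural gene but Lmod1. Tagln is left out of this order because each strand column holds only part of its reads. Acta2 exceeded Actg2 in every library of every group.

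**Figure D1:**
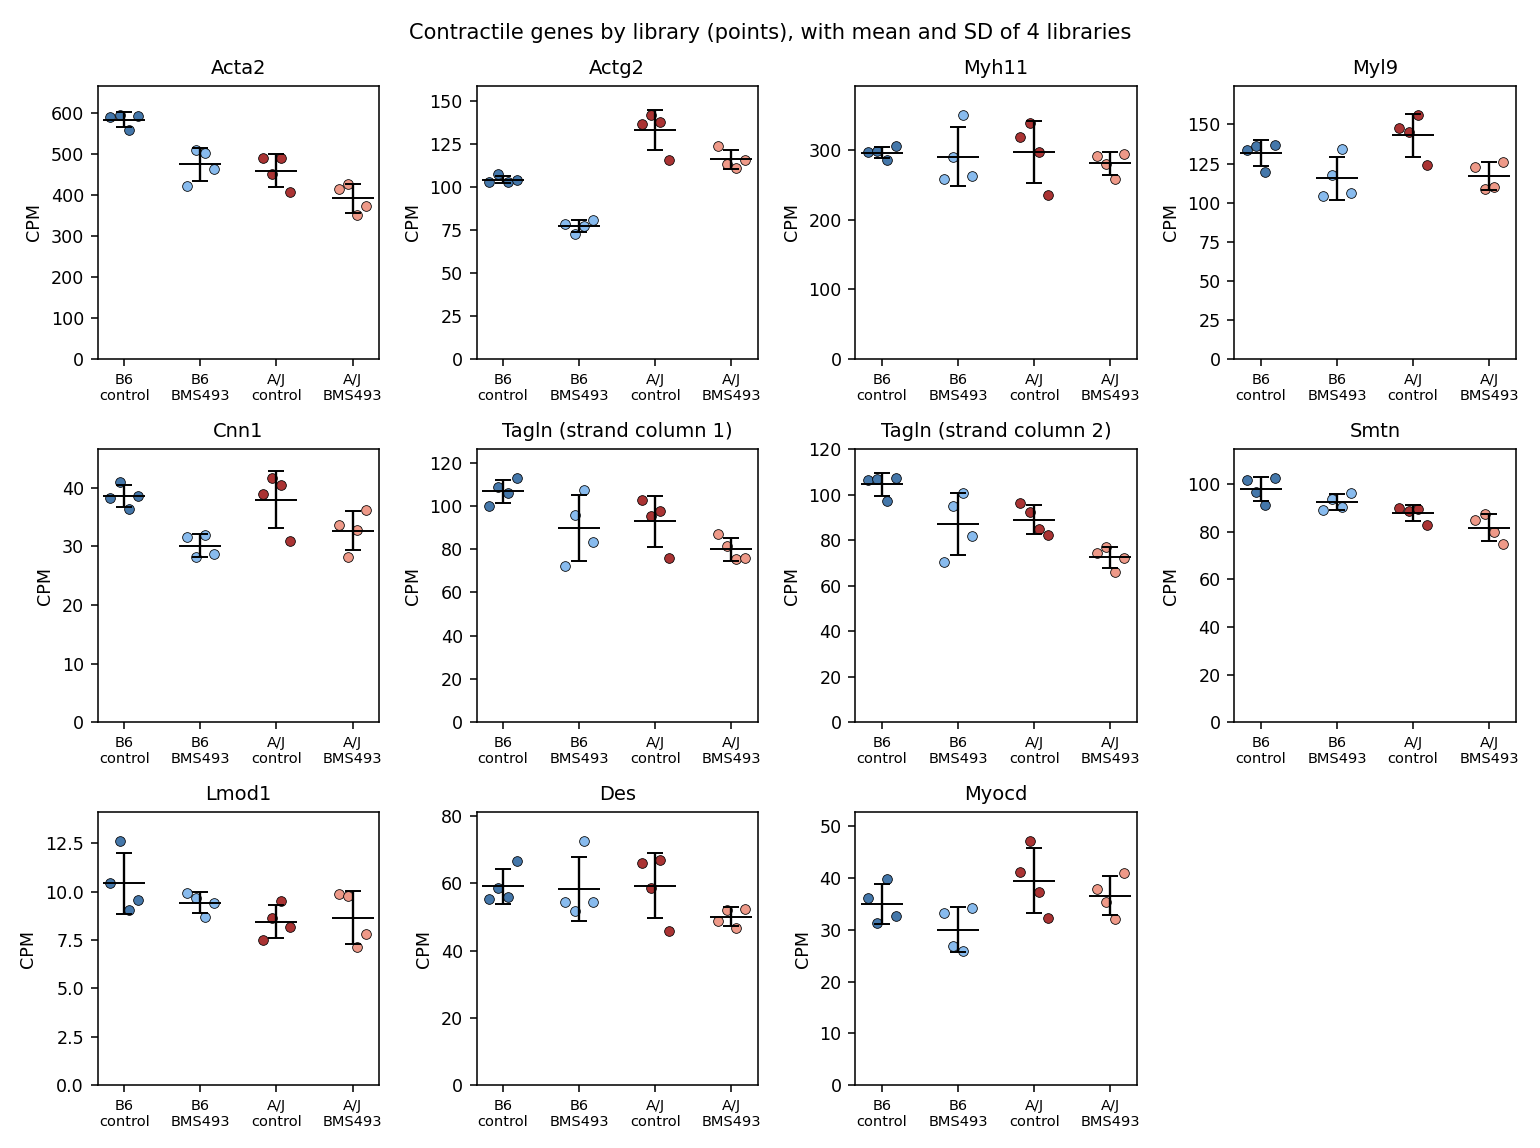
Expression of the 10 contractile genes (y axis, CPM, starting at 0) in each of 16 libraries (points) by group (x axis), with the mean (bar) and SD (whisker) of 4 libraries; Tagln is shown from the first and the second strand column. Actg2 in B6 with BMS493 (72.7 to 80.9 CPM) lies below all other groups, and Acta2 in B6 controls (556 to 594 CPM) above all others.

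Acta2, the main actin of contractile smooth muscle, was at 590.2, 594, 556 and 592 CPM in B6 controls and at 421, 508, 502 and 463 CPM in B6 with BMS493. In A/J it was at 489, 449.5, 490.1 and 405 CPM in controls and at 413, 426, 352 and 373 CPM with BMS493. All BMS493 libraries lay below all controls in B6, and in A/J the groups overlapped through control replicate 4. Actg2, the gamma smooth muscle actin best known from gut and bladder, was at 103, 108, 103 and 104 CPM in B6 controls and at 78.6, 72.7, 77.6 and 80.9 CPM with BMS493. In A/J it was at 137, 142, 138 and 116 CPM in controls and at 124, 114, 111 and 116 CPM with BMS493. No B6 library with BMS493 reached any control of either strain, and in A/J control replicate 4 again fell among the BMS493 libraries.

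Myh11, the smooth muscle myosin heavy chain, had close group means of 296 ± 8.27, 290.0 ± 42.2, 297 ± 44.2 and 281 ± 16.2 CPM, listed for the B6 control, B6 BMS493, A/J control and A/J BMS493 groups (SD, n = 4 each). Its extremes were B6 BMS493 replicate 3 at 349.6 CPM and A/J control replicate 4 at 236 CPM. Myl9, the light chain whose phosphorylation switches contraction on, was at 134, 136, 119 and 137 CPM in B6 controls and at 104, 118, 134 and 106 CPM with BMS493. In A/J it was at 148, 145, 156 and 124 CPM in controls and at 123, 109, 109.7 and 126 CPM with BMS493. The treated and control libraries overlapped in both strains, by 1 control library in A/J.

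Calponin (Cnn1), an actin-binding inhibitor of the myosin motor, was at 38.2, 41.0, 36.4 and 38.7 CPM in B6 controls and at 31.6, 28.2, 32.0 and 28.7 CPM in B6 with BMS493, without overlap. In A/J it was at 38.9, 41.6, 40.5 and 30.9 CPM in controls and at 33.6, 28.2, 32.8 and 36.2 CPM with BMS493, where control replicate 4 fell among the treated. Transgelin (Tagln), an actin-bundling protein of smooth muscle, was at 107, 107, 97.2 and 107 CPM of the second strand column in B6 controls and at 70.3, 95, 101 and 82.1 CPM with BMS493. In A/J it was at 96.3, 92.3, 85.1 and 82.4 CPM in controls and at 74.6, 77.1, 66.1 and 72.3 CPM with BMS493. The groups did not overlap in A/J and overlapped in B6 through BMS493 replicate 3. On the first strand column the Tagln means were 107 ± 5.35, 89.7 ± 15.2, 92.9 ± 11.8 and 79.9 ± 5.27 CPM for B6 control, B6 BMS493, A/J control and A/J BMS493.

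Smoothelin (Smtn), found in fully contractile smooth muscle, was at 98.0 ± 5.09, 92.5 ± 3.38, 87.8 ± 3.31 and 81.7 ± 5.53 CPM in the same order of groups. Leiomodin (Lmod1), which starts actin filaments, was the lowest of the set at 10.4 ± 1.57, 9.43 ± 0.547, 8.46 ± 0.838 and 8.65 ± 1.38 CPM. Des was at 59.2 ± 5.26, 58.3 ± 9.56, 59.4 ± 9.70 and 50.1 ± 2.79 CPM. Its B6 BMS493 value included replicate 3 at 72.6 CPM, while the other libraries of that group lay between 51.8 and 54.6 CPM. Myocd was at 35 ± 3.79, 30.1 ± 4.31, 39.5 ± 6.29 and 36.6 ± 3.77 CPM. For these 4 genes the treated and control libraries overlapped in both strains.

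The first comparison asks what BMS493 changed in B6 lung. Actg2 fell by 0.43 on the log2 scale (SE 0.063, edgeR quasi-likelihood adjusted p = 0.000947), and it was the 1 gene of 9 tested in the column without strand that was called at an adjusted p under 0.05. DESeq2 called 3 of the 9 (Acta2, Actg2 and Cnn1), beside 162 of all 17276 genes tested. With edgeR 0.423% of all genes were called, and 0.347% were called lower. All 9 genes were fitted below 0, as were 48.1% of all genes, with a median of -0.19 against 0.0070 over all genes. Without overlap between treated and control libraries, 3 of the 9 were lower, namely Acta2, Actg2 and Cnn1, against 2.63% of all genes. Acta2 stood at -0.30 (SE 0.072, edgeR adjusted p = 0.0657) and Cnn1 at -0.36 (SE 0.091, edgeR adjusted p = 0.0907). Myl9 at -0.19, Myocd at -0.22, Lmod1 at -0.15 and Smtn at -0.084 had adjusted p-values from 0.474 to 0.778. Myh11 at -0.030 (95% interval -0.23 to 0.17) and Des at -0.022 (95% interval -0.25 to 0.20) were nearest to 0. Tagln stood at -0.25 (edgeR adjusted p = 0.409) on the first strand column and at -0.27 (edgeR adjusted p = 0.249) on the second. The Actg2 call held in all 16 fits that left out 1 library. Without B6 BMS493 replicate 3, Acta2 at -0.33 (edgeR adjusted p = 0.0421) was called too, as was Tagln on the second strand column at -0.34 (edgeR adjusted p = 0.0408). Without A/J control replicate 4, which is in neither group compared and enters through the scaling and the shared estimate of spread, Acta2 and Cnn1 were both called (edgeR adjusted p = 0.0324 and 0.0321).

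In A/J lung the same question gave no call among the 9 genes, while 0.486% of all genes were called. An unadjusted p under 0.05 was reached by 5 of the 9 (6.23% of all genes), and DESeq2 also called 0. Of the 9 genes 8 were fitted below 0, against 50.7% of all genes, with a median of -0.20 where all genes had -0.0019. Myl9 stood at -0.29 (SE 0.080, edgeR adjusted p = 0.138), Acta2 at -0.23 (SE 0.072, adjusted p = 0.258) and Actg2 at -0.20 (SE 0.062, adjusted p = 0.272). Des at -0.25 and Cnn1 at -0.22 had adjusted p of 0.707 and 0.625. Myocd stood at -0.11, Smtn at -0.10 and Myh11 at -0.083 (95% interval -0.28 to 0.11). Lmod1, at 0.033, was the gene fitted above 0. Tagln stood at -0.22 (edgeR adjusted p = 0.728) on the first strand column and -0.30 (edgeR adjusted p = 0.176) on the second. A/J control replicate 4 had the lowest value of its group for 8 of the 9 genes. Without this library Actg2 at -0.26 and Myl9 at -0.36 were called (edgeR adjusted p = 0.0235 and 0.0331). It was picked by the values of these same genes, so a larger fall without it follows from that choice and adds no support. A/J BMS493 replicate 3 had the lowest value of its group for 6 of the 9. Leaving that one out raised the edgeR adjusted p to 0.792 for Acta2, 0.717 for Actg2 and 0.496 for Myl9. Without B6 BMS493 replicate 3 Myl9 alone was called (edgeR adjusted p = 0.0404).

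Averaged over the strains, 4 of the 9 genes fell with BMS493, where 1.37% of all genes were called and 1.09% were called lower. Actg2 fell by 0.32 (SE 0.044, edgeR adjusted p = 0.000104), Cnn1 by 0.29 (SE 0.064, edgeR adjusted p = 0.0152), Acta2 by 0.27 (SE 0.051, edgeR adjusted p = 0.00425) and Myl9 by 0.24 (SE 0.057, edgeR adjusted p = 0.0264). Tagln fell by 0.28 (SE 0.060, edgeR adjusted p = 0.00945) on the second strand column, in which 1.15% of genes were called, and stood at -0.24 (edgeR adjusted p = 0.110) on the first. The first-column value was called without B6 BMS493 replicate 3 (-0.28, edgeR adjusted p = 0.0124). The same held when A/J control replicate 4 was left out (-0.28, edgeR adjusted p = 0.0189). All 9 were fitted below 0 (49.2% of all genes), with a median of -0.17. The other 5 were Myocd at -0.17, Des at -0.14, Smtn at -0.094, Myh11 at -0.057 and Lmod1 at -0.057, with adjusted p from 0.415 to 0.887. The interval for Myh11 ran from -0.20 to 0.08 at 95%, which leaves out a fall of the size fitted for Actg2. Its value lay between -0.11 and -0.023 over the 16 fits that left out 1 library. The average shares its libraries with both strain-specific comparisons and is no separate evidence. Acta2, Actg2 and Tagln on the second strand column were called in all 16 fits that left out 1 library, Cnn1 in 14 and Myl9 in 7. Cnn1 and Myl9 were not called without B6 control replicate 2 or without A/J control replicate 2. On the second strand column Myl9 stood at -0.22 (edgeR adjusted p = 0.0605).

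**Figure D2:**
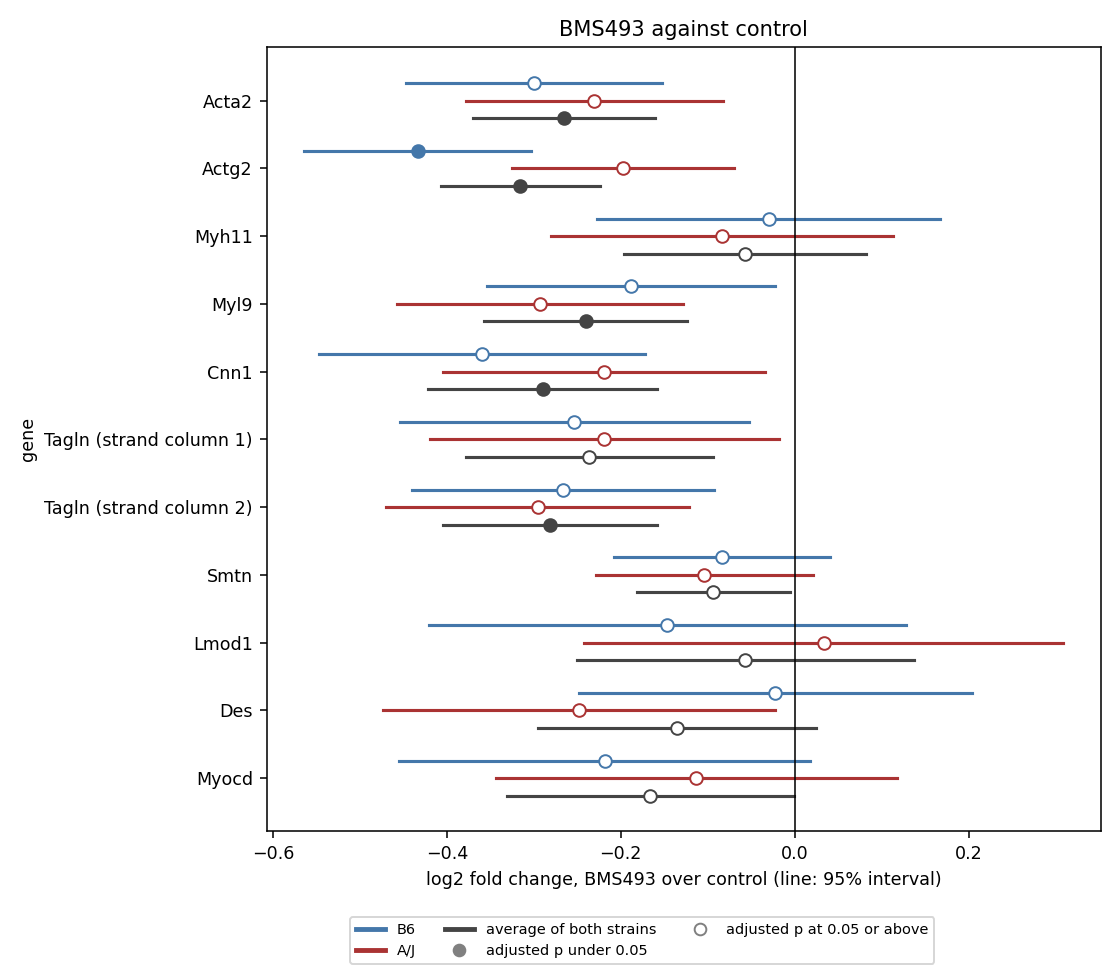
Log2 fold change of BMS493 over control (x axis; point, with a line for the 95% interval) for each contractile gene (y axis) in B6, in A/J and averaged over both; filled points have an adjusted p under 0.05. Most points lie left of 0, while Myh11 (-0.030 in B6, -0.083 in A/J) lies near it.

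Whether the response differed by strain was tested as the difference between the A/J and B6 effects. None of the 9 genes was called by edgeR or by DESeq2, 1 of the 9 had an unadjusted p under 0.05, and of all genes 0.00579% were called and 3.68% had an unadjusted p under 0.05. That gene was Actg2, whose fall was smaller in A/J by 0.24 (95% interval 0.05 to 0.42, edgeR unadjusted p = 0.0135, adjusted p = 0.999). For Acta2 the difference was 0.069 (95% interval -0.14 to 0.28), for Cnn1 0.14 (-0.12 to 0.40), for Myl9 -0.10 (-0.34 to 0.13) and for Des -0.23 (-0.55 to 0.09). It was 0.18 for Lmod1 (-0.21 to 0.57), 0.11 for Myocd (-0.22 to 0.44), -0.053 for Myh11 (-0.33 to 0.22) and -0.020 for Smtn (-0.20 to 0.16). Tagln had 0.034 (-0.25 to 0.32) on the first strand column and -0.030 (-0.28 to 0.22) on the second. None of these was called without B6 BMS493 replicate 3 or without A/J control replicate 4, and the sign turned without the first for Myh11 (0.049) and for Tagln on the second strand column (0.047), and without the other for Tagln on the first (-0.050). The intervals do not exclude strain differences of a size like that of several effects within a strain.

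The strains themselves were then compared within controls, where the pair of smooth muscle actins went in opposite directions. A/J controls had less Acta2 than B6 controls, by a log2 fold change of -0.35 (SE 0.072, edgeR adjusted p = 0.00106), and Actg2 was higher by 0.35 (SE 0.062, edgeR adjusted p = 0.000208). These were the 2 calls among 9 genes, against 16.9% of all genes called. In neither gene did the libraries of the strains overlap. Smtn also did not overlap and stood at -0.16 (edgeR adjusted p = 0.0751), so that 2 of the 9 were lower and 1 higher without overlap, against 13.6% and 10.7% of all genes. Lmod1 stood at -0.30 (edgeR adjusted p = 0.124), Myocd at 0.18 and Myl9 at 0.12, while Myh11 at 0.0065, Des at 0.0093 and Cnn1 at -0.020 were nearest to 0. Tagln stood at -0.20 (edgeR adjusted p = 0.193) and -0.23 (edgeR adjusted p = 0.0674) on the strand columns. A member count of 2 in 9 is near the share of all genes called, and a difference between the strains was common in these libraries. Both actin calls held in all 16 fits that left out 1 library. Without B6 BMS493 replicate 3, which is in neither group compared, Smtn at -0.16 (edgeR adjusted p = 0.0425) and Tagln on the second strand column at -0.23 (edgeR adjusted p = 0.0251) were called too. Smtn was also called on the second strand column, at -0.22 (edgeR adjusted p = 0.0298). The sign of Cnn1 turned when A/J control replicate 4 was left out (0.067).

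Under BMS493 the strain differences of the actins had the same signs. Actg2 was higher in A/J by 0.59 (SE 0.063, edgeR adjusted p = 1.28e-07), Acta2 lower at -0.28 (SE 0.072, edgeR adjusted p = 0.00691) and Smtn lower at -0.18 (SE 0.061, edgeR adjusted p = 0.0390), 3 calls of 9 against 20.0% of all genes. Actg2 and Smtn did not overlap between the strains (1 higher and 1 lower of 9, against 8.74% and 10.8% of all genes), while the highest A/J library of Acta2 at 426 CPM lay above the lowest B6 library at 421 CPM. Myocd stood at 0.28 (edgeR adjusted p = 0.0860), and was called with no filter on low counts (edgeR adjusted p = 0.0146) and without B6 BMS493 replicate 4 (edgeR adjusted p = 0.0456). Des stood at -0.22 (edgeR adjusted p = 0.181). Lmod1 at -0.13, Cnn1 at 0.12, Myh11 at -0.047 and Myl9 at 0.018 had adjusted p-values from 0.395 to 0.909. Tagln was lower at -0.26 on the second strand column (edgeR adjusted p = 0.0342, in a column with 16.6% of genes called) and stood at -0.16 on the first (edgeR adjusted p = 0.281). The second-column call of Tagln was lost in 5 of 16 fits that left out 1 library (edgeR adjusted p up to 0.127), among them that without B6 BMS493 replicate 3 (-0.19, edgeR adjusted p = 0.115). Without the latter the actin and Smtn calls stood, and the value of Myh11 turned from -0.047 to 0.049. The Smtn call was also lost in 5 of 16 such fits (edgeR adjusted p up to 0.160), with only the 8 libraries compared and with no filter on low counts, and on the second strand column Smtn was at -0.13 (edgeR adjusted p = 0.204).

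**Figure D3:**
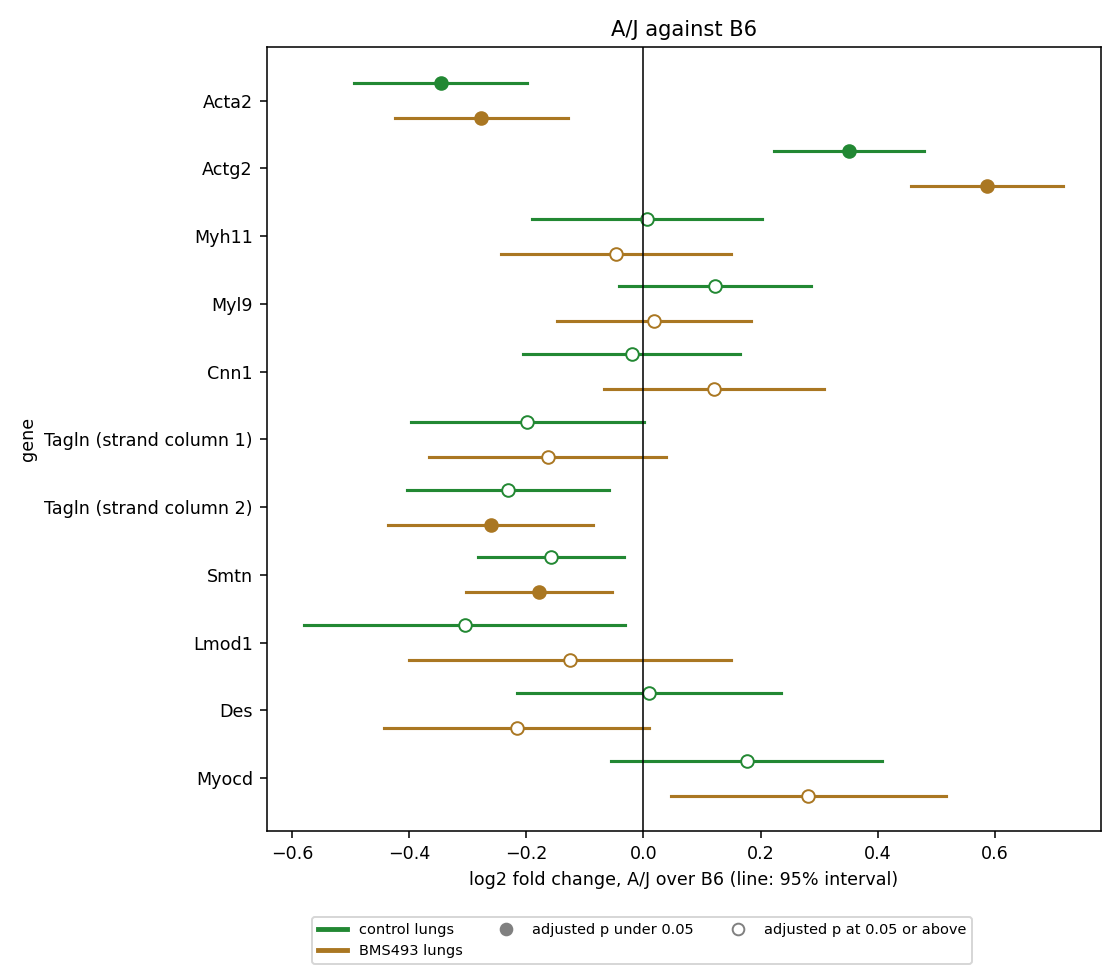
Log2 fold change of A/J over B6 (x axis; point, with a line for the 95% interval) for each contractile gene (y axis) in control and in BMS493 lungs; filled points have an adjusted p under 0.05. Acta2 lies left of 0 and Actg2 right of it in both, at -0.35 and 0.35 in controls and at -0.28 and 0.59 with BMS493.

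The balance between the actins was also taken within each library, as the ratio of Actg2 to Acta2 CPM, which does not depend on how libraries are scaled. The ratio was 0.179 ± 0.00501 in control and 0.165 ± 0.0197 in treated B6 lungs, and 0.291 ± 0.0168 in control and 0.299 ± 0.0224 in treated A/J lungs (SD, n = 4 each). Every A/J library, from 0.267 up, lay above every B6 library, up to 0.187. The ratio in A/J was 1.62-fold that in B6 among controls and 1.82-fold among BMS493 lungs. BMS493 against control gave 0.914-fold in B6 and 1.03-fold in A/J, with overlapping libraries. The ratio was added after the levels had been seen. Exact permutation tests of its log2 value gave p = 0.0286 for each strain comparison, the smallest that 4 against 4 libraries allow. Adjusted over the 4 comparisons this was 0.0571 for each, and 0.381 in B6 and 0.629 in A/J for BMS493 against control. Because the values were known beforehand, the ratio is read as a description.

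**Figure D4:**
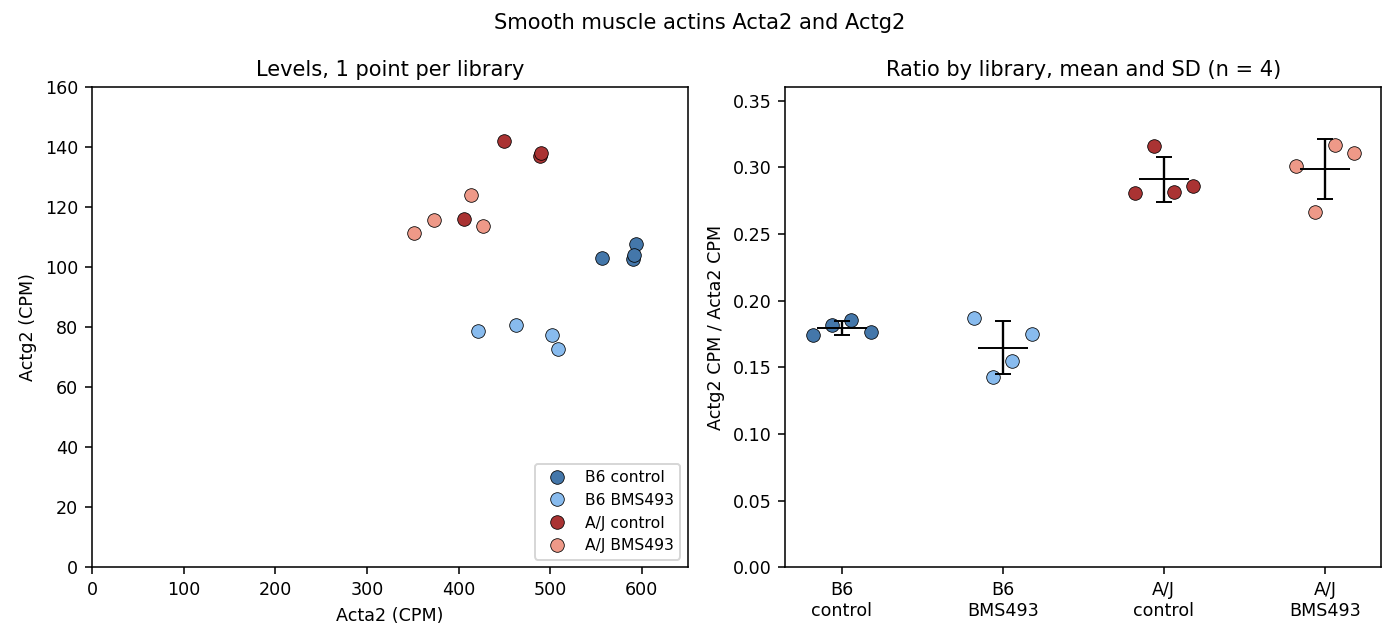
Left, Actg2 against Acta2 (axes in CPM, from 0), 1 point per library; right, the ratio of Actg2 to Acta2 CPM by group, with points for libraries and the mean and SD of 4. The A/J libraries (0.267 to 0.317) lie above the B6 libraries (0.143 to 0.187) in both treatments.

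Libraries of one group also differed from each other in how much contractile RNA they held, and the genes moved together in this to unequal degrees. With log2 CPM centred on each group's mean, the Pearson correlation of a gene with the mean of the other 8 over 16 libraries was 0.82 for Actg2, 0.77 for Myh11, 0.70 for Myl9, 0.66 for Des, 0.63 for Cnn1 and 0.62 for Acta2. It was 0.34 for Smtn and 0.14 for both Lmod1 and Myocd. Of 36 pairs 29 were above 0 with a median of 0.37, and the closest pair was Myh11 with Myl9 (0.84). These are descriptions over libraries that share their depth and scaling, 1 of which (A/J control replicate 4) is low in most of the genes. The centred mean of the 9 genes was followed most closely, among 9894 coding genes with a mean of at least 10 CPM, by Mepce (Pearson r = 0.92), Mgll (0.91), Ssbp4 (0.90), Klc4 (0.87) and Rita1 (0.87), none of which is on a muscle or marker list used here. The 43 thin filament and cytoskeletal genes had a median r of 0.33 with it, the 12 cardiac markers 0.47, the 12 vascular smooth muscle and pericyte markers 0.30 and all genes 0.0017. It was -0.038 for the 9 airway smooth muscle markers. Lists outside muscle also had values above that of all genes, with 0.46 for 8 cartilage markers, 0.31 for 10 retinoic acid targets and 0.30 for 10 endothelial markers.

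**Figure D5:**
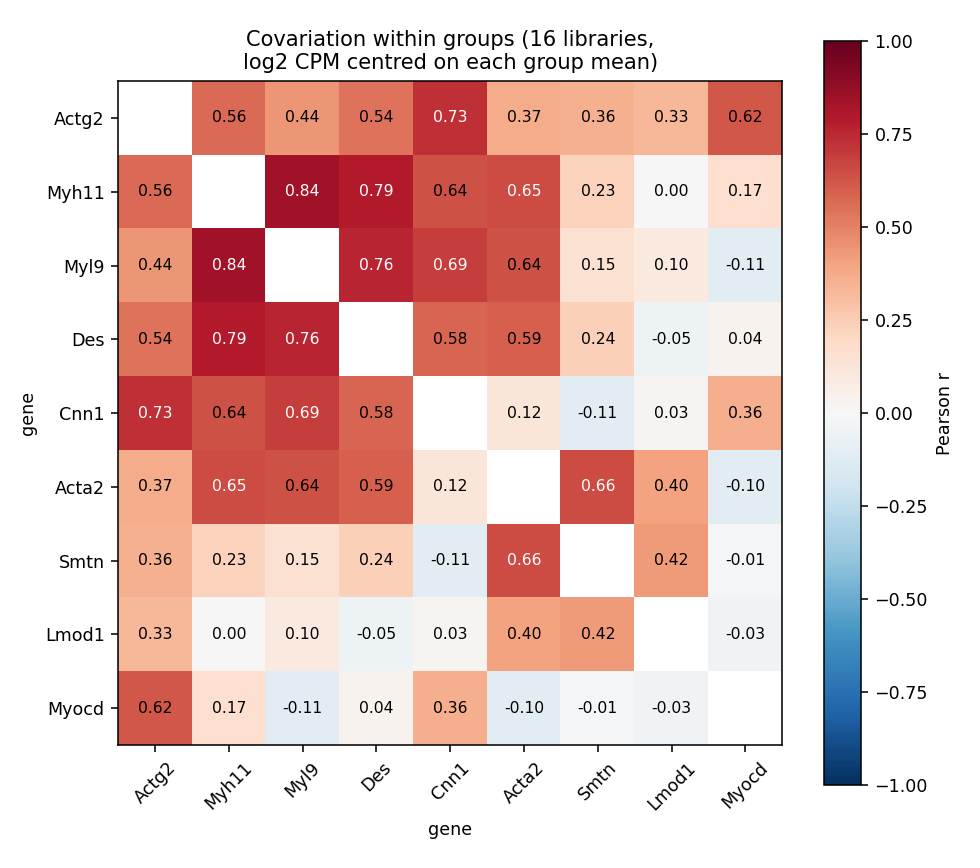
Pearson correlation (colour and number) between 9 contractile genes on both axes, over 16 libraries after centring log2 CPM on each group mean. Myh11, Myl9, Des and Cnn1 form a block with pairs up to 0.84, while Myocd and Lmod1 correlate weakly with most others.

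Other genes of the contractile pathway were taken from lists. Those named are called genes of large change, or were added after their values were seen. Of 43 tested genes of the thin filament and cytoskeleton, 1 fell with BMS493 over both strains and none rose, a share near the 1.37% of all genes called. It was Pdlim7, a PDZ and LIM protein of actin bundles, which fell by 0.36 (SE 0.050, edgeR adjusted p = 0.000104). The list's median was -0.026, and its tropomyosin and caldesmon genes Tpm1 at -0.18, Tpm2 at -0.070 and Cald1 at -0.10 were not called (edgeR adjusted p = 0.153, 0.791 and 0.402). Of 22 genes of myosin phosphorylation and its control 1 fell, Mrvi1, the substrate through which cyclic GMP kinase damps calcium release, by 0.44 (SE 0.063, edgeR adjusted p = 0.000104), while the myosin light chain kinase gene Mylk stood at -0.042 (edgeR adjusted p = 0.814). Among 30 genes of calcium handling and caveolae, Itpr1, a calcium release channel, fell by 0.27 (edgeR adjusted p = 0.000696), and Stim1, a sensor of calcium stores, rose by 0.25 (edgeR adjusted p = 0.0480), a call lost in 13 of 16 fits that left out 1 library.

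Regulators of smooth muscle genes went both ways. Of 44 tested cofactors and regulators of serum response factor, 2 rose and 3 fell over both strains, beside 1.37% of all genes called. The forkhead gene Foxf2 rose by 0.44 (SE 0.055, edgeR adjusted p = 6.76e-06), and Meox2, a mesenchymal homeobox gene, rose by 0.43 (edgeR adjusted p = 4.37e-06). Tshz3, a regulator of Myocd function in ureteric smooth muscle, fell by 0.49 (edgeR adjusted p = 0.000394), Foxf1 by 0.33 (edgeR adjusted p = 0.00235) and the Notch effector Hey2 by 0.54 (edgeR adjusted p = 0.0353), the last call being lost in 11 of 16 fits without 1 library. Serum response factor itself (Srf) stood at 0.017 and its actin-sensing coactivators at 0.060 (Mrtfa) and -0.11 (Mrtfb), none called. Of 35 inducers and growth signals 1 was called, the ligand gene Tgfb3, which fell by 0.23 (edgeR adjusted p = 0.0181), a call lost in 3 of 16 fits that left out 1 library. In the B6 comparison 2 of the 35 were called lower, Tgfb3 and Gli1, beside 0.347% of all genes. Gli1, a hedgehog target, fell by 0.39 (edgeR adjusted p = 0.0210), with the call lost in 4 of 16 fits that left out 1 library. None of the 35 was called in A/J, and none for the strain difference in the response.

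Between the strains more of these pathway genes were called, beside 16.9% of all genes in controls. Among controls, 3 of the 43 thin filament and cytoskeletal genes were higher in A/J and 8 lower, with Csrp1 at -0.49 and Fhl1 at -0.68 (edgeR adjusted p = 3.78e-05 and 0.00260). Of the 30 genes of calcium handling 1 was higher and 8 lower. Of the 22 genes of myosin phosphorylation 2 were higher, with Mrvi1 at 0.35 (edgeR adjusted p = 0.00554), and 2 lower. Of the 44 regulators 1 was higher and 8 lower, with Nfatc1 at -0.70 (edgeR adjusted p = 0.000109), and of the 35 inducers 4 were higher and 6 lower, with Wnt5a at -0.69 (edgeR adjusted p = 7.42e-05).

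Markers of cell types that also use the contractile genes were followed beside them. Of 9 airway smooth muscle markers 1 was called with BMS493 over both strains. It was Foxf1, lower, which is also on the regulator and lung mesenchyme lists and so is not particular to airway smooth muscle. The summed level of the 9 markers was 482 to 513 CPM in control and 411 to 521 in treated B6 lungs, and 432 to 486 in control and 435 to 461 in treated A/J lungs. None of the 12 vascular smooth muscle and pericyte markers was called by edgeR in a BMS493 comparison (unadjusted p under 0.05 for 2 in B6, 0 in A/J, 0 in the average and 1 in the strain difference). Their sum was 1793 to 1895 CPM in control and 1483 to 2809 in treated B6 lungs, and 1054 to 1595 in control and 1364 to 1611 in treated A/J lungs. Eln weighs most in this sum, with up to 34619 counts in a library against up to 7216 for Notch3, the next. Of 12 tested cardiac markers of 16 listed none was called with BMS493, 5 had an unadjusted p under 0.05 in B6 (9.11% of all genes), and their median there was -0.43. The cardiac sum was 109 to 129 CPM in control and 64.2 to 123 in treated B6 lungs, and 62.0 to 105 in control and 79.5 to 106 in treated A/J lungs. Actc1, with up to 1507 counts in a library, is on both the cardiac and the airway smooth muscle list, so the sums share it. The atrial marker Nppa had 0 counts in all 16 libraries, while the 12 tested cardiac markers passed the count filter. Outside muscle, beside the 1.37% of all genes called in the average, 1 of 8 mesothelial markers was called, Upk3b at -0.38 (edgeR adjusted p = 0.00789). Of 8 neural crest and neuron markers 7 were fitted below 0 (49.2% of all genes), with a median of -0.33, and Tubb3 at -1.03 was called (edgeR adjusted p = 0.0292, lost in 9 of 16 fits without 1 library). Of 10 lung epithelial markers none was called, 4 had an unadjusted p under 0.05 (10.8% of all genes), and the median was 0.15. The part of all these cell types in the contractile results was not tested.

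Between the strains in controls, where 16.9% of all genes were called, 6 of the 12 vascular markers were lower in A/J and 1 higher, with Ndufa4l2 at -1.35 and Rgs5 at 0.79 (edgeR adjusted p = 4.10e-05 and 2.80e-06). Of the 9 airway smooth muscle markers 4 were lower, among them Lgr5 at -0.76 and Cdh4 at -0.68 (edgeR adjusted p = 0.00381 and 0.00486). Of the cardiac markers 2 were lower, with Tnnt2 at -1.50 (edgeR adjusted p = 0.00596). Of 10 endothelial markers 7 were lower (median -0.38), with a summed level of 1416 to 1529 CPM in B6 and 1033 to 1235 in A/J controls. Of 12 lung mesenchyme markers 5 were lower (median -0.22), with a sum of 9661 to 10018 CPM in B6 and 5949 to 7682 in A/J controls. Most of that sum came from the list's matrix genes, so it is no measure of the amount of mesenchyme. Some other lists had a median log2 fold change above 0 in A/J against B6 controls, though most of their members were not called. Of 5 tested oesophagus and stomach markers 2 were higher and none lower (median 0.76), with Gata4 at 0.90 (edgeR adjusted p = 5.72e-05) and Nkx6-1 at 1.09 (edgeR adjusted p = 0.0274, lost in 5 of 16 fits without 1 library). Their sum was 11 to 13 CPM in B6 and 19.6 to 24.1 in A/J controls. Of 8 neural crest and neuron markers 2 were higher and 1 lower (median 0.55). Of 10 red cell genes 2 were higher (median 0.091), Hbb-y at 1.01 (edgeR adjusted p = 0.0251, lost in 5 of 16 fits without 1 library) and Hbb-bh1 at 0.97 (edgeR adjusted p = 0.00653). By contrast, 2 of 10 lung epithelial markers were lower (median -0.13), Sftpc at -1.79 and Epcam at -0.24 (edgeR adjusted p = 0.00857 and 0.00793). The part of these cell types in the opposite strain differences of Acta2 and Actg2 was not tested. Skeletal muscle markers were near the limit of detection: 8 of 15 stayed under the count filter, Myod1 with at most 4 counts in a library, and the summed level was 4.37 to 10.7 CPM over all libraries. Of the 7 tested, 1 was called in controls, Actn3, lower in A/J at -0.88 (edgeR adjusted p = 0.0347, lost in 6 of 16 fits without 1 library). With BMS493 in A/J 1 was called, beside 0.486% of all genes. It was Myh8, a developmental myosin heavy chain of skeletal muscle, higher by 2.41 (edgeR adjusted p = 0.0105, lost in 3 of 16 fits without 1 library). Myh8 was also higher in A/J than in B6 under BMS493, by 2.21 (edgeR adjusted p = 0.00130), where 20.0% of all genes were called.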

How the data were processed

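The authors deposited raw counts per gene, 1 file a library with 3 columns (regardless of strand and 1 for each strand), in the layout of STAR; per the submitters' processing notes FastQC, cutadapt and STAR (versions not given in the sources used here) and the build GRCm39 were used. Lines that name no gene held 23.1% to 28.3% of fragments and were left out. Symbols and exon lengths came from GENCODE M21, of an older build (51884 identifiers, 98.9% of counts), and whether A/J sequence differences affect counting against GRCm39 was not tested.

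The deposited counts were analysed with edgeR 4.0.16 in R 4.3.3: filterByExpr (17276 genes kept), TMM scaling, a robust quasi-likelihood fit of all 16 libraries with 1 coefficient per group (12 residual degrees of freedom), two-sided tests, Benjamini-Hochberg adjustment over all genes tested and calls at an adjusted p under 0.05. Tagln came from the same fit on each strand column. CPM used TMM scaling, and logged values a prior count of 2. Intervals are at 95%. The fit was tested on simulated data.

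The 10 genes and all lists were chosen with earlier results of these data known. Every contractile gene is named in every comparison; of each list, called genes among the 3 with the largest change, though not all of them; and the 5 coding genes that vary most like the set. Tpm1, Tpm2, Cald1, Mylk, Srf, Mrtfa and Mrtfb were added after their values were seen. One listed gene, Mir143hg, was not matched. A few listed or compared items are not reported here. Same-numbered libraries of 2 groups did not deviate together (mean correlations -0.041 to 0.064), so no pairing was assumed. Alternatives were RLE scaling, DESeq2 1.42.0, other filters, only the 8 libraries compared, a replicate block, the library number range as covariate, the strand columns and leaving out each library.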

Additional observations from a re-analysis of the deposited data

Results flagged for a closer look

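In groups of 4 libraries, a library was singled out when its gap to the nearest other was, as a share of the group's range, above Dixon's 95% critical value, which chance alone does in about 1 group of 20. It happened in 6 of 48 groups of the contractile genes. In B6 controls replicate 3 was the lowest for Acta2 (556 CPM against 590.2 to 594, ratio 0.907), for Myl9 (119 CPM against 134 to 137, ratio 0.836) and for Tagln on the second strand column (97.2 CPM against 107 in the others, ratio 0.940). In B6 with BMS493 replicate 3 was the highest for Des (72.6 CPM against 51.8 to 54.6, ratio 0.868). In A/J controls replicate 4 was the lowest for Smtn (82.9 CPM against 88.9 to 89.9, ratio 0.860), and replicate 2 had the highest ratio of Actg2 to Acta2 (0.316 against 0.280 to 0.286, ratio of the gap 0.843).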

How the results depend on the processing

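Of 1604 values of the contractile genes recomputed under the alternatives, 1510 kept their direction and their side of the threshold, 26 were no longer called, 28 became called and 40 changed sign, none of them while called. In B6 3 genes were called with DESeq2 and 3 with no filter on low counts (Acta2, Actg2 and Cnn1), and in A/J 1 was with no filter (Myl9). Over all genes these settings called 162 of 17276 and 260 of 34971 in B6, and 178 of 34971 in A/J. Leaving out 1 library gave 1 to 3 calls in B6, 0 to 2 in A/J and 2 to 4 averaged over strains. The number of all genes called in those fits also varied, from 27 to 201 in B6, 52 to 121 in A/J and 165 to 371 averaged over strains. The cause was not tested. The sign turned for the strain difference in the response on the second strand column in Cnn1 (-0.00092) and Smtn (0.085), and for A/J against B6 controls in Cnn1 on that column (0.060) and in Myh11 with the replicate block (-5.19e-05). The replicate block changed no call among 66 values. When 1 library was left out, signs turned within these ranges: in B6 Myh11 (-0.13 to 0.023) and Des (-0.14 to 0.039); in A/J Lmod1 (-0.036 to 0.11); for the strain difference Myh11 (-0.15 to 0.049), Smtn (-0.054 to 0.0195) and Tagln (-0.057 to 0.13 and -0.12 to 0.047 on the strand columns); for A/J against B6 controls Myh11 (-0.061 to 0.10), Cnn1 (-0.068 to 0.067) and Des (-0.051 to 0.11); with BMS493 Myh11 (-0.097 to 0.049) and Myl9 (-0.027 to 0.090). Lmod1, the lowest of the genes in the column without strand, had 130 to 305 counts a library, so counting error adds to the spread between its libraries.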
